A study of Mus musculus with 6 samples.

Results

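The genes considered here encode splicing factors and other RNA-binding proteins, and each had a splicing event that was listed as different after knockdown of Sfpq. They are Luc7l2, Rbm39, Srrm2, Celf2, Pcbp2, Ptbp3, Rbmx and Rbm41. A listed interval was counted for a gene when it lay inside the gene and matched its annotated exon edges, which gave 8 distinct events in 8 genes, of 643 distinct events in 581 genes in all. The genes were chosen by the presence of an event in these lists, so that presence is a description and was not tested. RNA was sequenced from P19 cells, a mouse embryonal carcinoma line with stem cell properties, in 2 groups of 3 samples. The cells had been transfected either with small interfering RNA against SFPQ (knockdown) or with a control small interfering RNA. The deposited comparison consists of 3 lists, one for each replicate number, called list 1, list 2 and list 3. They hold 270, 264 and 257 events.

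A line of a list holds where an event lies and of which type it is, and nothing more. No level of inclusion, direction or read count stands beside it, so no event can be said to be more included or more skipped, the depth is unknown and no replicate error can be given. Expression of Sfpq and of P19 markers could not be checked either. Sfpq itself had 0 listed events.

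Splicing removes introns through the spliceosome, in which the U1 particle marks the 5′ splice site and the U2 particle, with U2AF, the branch site and the 3′ splice site. SR proteins and hnRNPs bind the transcript and shift the choice between competing sites. The mRNAs of such factors are often alternatively spliced themselves, and for many of them one product carries an early stop codon and is destroyed by nonsense-mediated decay, through which the protein limits its own amount. A stop codon lying more than 50 nt before the last exon junction is the usual trigger of that decay. Sfpq binds RNA and DNA in the nucleus, is a building block of paraspeckles and was first purified as a splicing factor.

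Cassette exons, which are included or skipped whole, made up 5 of the 8 events (Luc7l2, Srrm2, Pcbp2, Ptbp3 and Rbm41). The other 3 were alternative acceptor sites, where the exon can begin at either of a pair of 3′ splice sites (Rbm39, Celf2 and Rbmx). Donor shifts and intron retention, the other types in the lists, were not found in these genes. The 635 other events were 434 cassette exons, 94 acceptor shifts, 93 donor shifts and 14 retained introns. With 8 member events, the absence of the rarer types was not tested and nothing is read from it. The sequences of the coding events are shown because their length and letters decide what becomes of the reading frame. Each is the spliced mRNA, 5′ to 3′, of the GENCODE M21 transcript (GRCm38, the assembly of mm10), with the listed event in capitals and the 30 bases on either side of it in lower case. For a cassette exon those bases belong to the neighbouring exons. For an acceptor event the bases after it are the rest of the same exon.
Rbm39: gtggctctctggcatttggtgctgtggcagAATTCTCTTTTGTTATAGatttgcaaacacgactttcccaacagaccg
Rbm41: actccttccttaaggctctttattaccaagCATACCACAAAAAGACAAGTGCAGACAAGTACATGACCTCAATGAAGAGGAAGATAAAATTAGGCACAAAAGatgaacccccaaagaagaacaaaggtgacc
Srrm2: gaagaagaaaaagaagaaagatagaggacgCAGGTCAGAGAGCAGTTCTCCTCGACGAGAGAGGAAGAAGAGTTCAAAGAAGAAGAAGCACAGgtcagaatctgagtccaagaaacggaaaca
Ptbp3: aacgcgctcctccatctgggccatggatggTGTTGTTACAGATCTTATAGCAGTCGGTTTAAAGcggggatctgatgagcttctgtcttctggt
Pcbp2: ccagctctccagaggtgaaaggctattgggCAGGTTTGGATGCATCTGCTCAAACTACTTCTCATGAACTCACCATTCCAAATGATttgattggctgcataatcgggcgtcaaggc
Celf2: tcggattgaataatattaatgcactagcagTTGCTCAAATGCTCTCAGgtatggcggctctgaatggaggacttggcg

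Rbm41 was the one member whose event stood in all 3 lists. No share over all 643 events is given for presence in all 3 lists, so nothing is read from it. The events of Luc7l2, Ptbp3 and Rbm39 stood in lists 1 and 2, that of Pcbp2 in lists 1 and 3 and that of Rbmx in lists 2 and 3. Srrm2 was in list 2 alone and Celf2 in list 1 alone. List 1 thus held 6 of the events, list 2 also 6, and list 3 held 3. In total 6 of the 8 genes had the same event in more than 1 list, beside 126 of all 643 distinct events (19.6%). That number rests on lists 1 and 2, since 2 genes were left with a recurring event without list 1, 2 without list 2 and 4 without list 3. Of all 20620 protein-coding genes with an intron, 579 (2.81%) had an event in any list and 122 (0.592%) had the same event in more than 1 list. The members were chosen with these lists known, and nothing is read from their higher share.

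**Figure D1:**
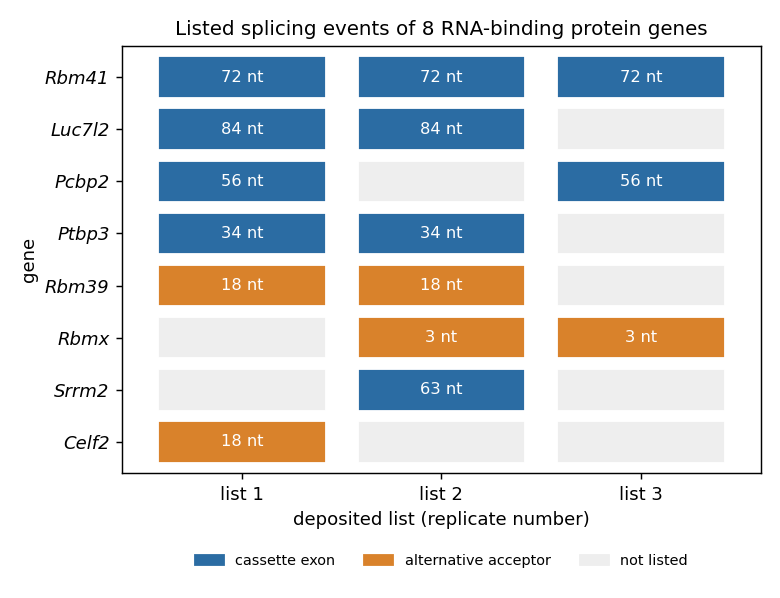
Each row is a gene and each column a deposited list, and a filled box marks a listed event with its length in nt (blue, cassette exon; orange, alternative acceptor site; grey, not listed). Rbm41 fills all 3 columns, and the column of list 3 holds 3 events against 6 in each of the others.

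The first set of genes encodes proteins of the splicing machinery or related to it. Luc7l2, a relative of yeast Luc7, belongs to the proteins around the U1 particle that help to choose 5′ splice sites. Its event was an 84-nt cassette exon on chromosome 6 (chr6:38554980-38555063, mm10, plus strand). It is exon 2 of 11 in transcript Luc7l2-207, where it is annotated as 5′UTR, 98 nt ahead of the start codon. Of the annotated transcripts, 3 hold the exon and 3 splice over it. The protein-coding transcripts with the exon start in a later exon than those without it. In Luc7l2-201, which lacks the exon, the reading frame opens in exon 1, 61 nt before the place of the exon, and runs for 392 residues. Although 84 is divisible by 3, putting the exon into Luc7l2-201 brought a TGA into that frame at base 33 of the exon, after 31 residues and 989 nt before the last junction. The 30 bases around that stop codon, with the stop codon in capitals and all other bases from the same exon, are given to show it.
Luc7l2: cctgtgtgccacTGAaaatcgtgccgatgc
The coding sequence annotated in Luc7l2-207, of 339 residues, is the end of the 392-residue one, so that 53 residues at the N terminus separate the 2 annotated proteins. The exon thus adds a whole number of codons and, within them, a stop codon, and it is 5′UTR only by the start codon annotated downstream.

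Rbm39, a nuclear protein related to the large subunit of U2AF that works in 3′ splice site recognition, had an 18-nt acceptor event on chromosome 2 (chr2:156154272-156154289, minus strand). It extends exon 13 of 17 in Rbm39-203 at its upstream end. The 18 bases shown above include 12 pyrimidines and end in TAG, so the longer exon takes in bases that serve as the end of the intron when the second acceptor is used. The event was coding. Rbm39-203, with the 18 bases, encodes 530 residues and Rbm39-201, without them, 524, and their coding sequences differ by nothing else. In total 4 annotated transcripts hold the extension and 3 do not.

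Rbm41 has an RNA recognition motif like that of Rnpc3, a protein of the minor spliceosome. The cassette exon in all 3 lists has 72 nt and lies on chromosome X (chrX:139991516-139991587, minus strand), exon 5 of 8 in Rbm41-204. That transcript is the only annotated one with the exon, and 5 others splice over it. Leaving the exon out shortened the protein from 437 to 413 residues with the same stop codon, and Rbm41-201 is annotated with exactly that coding sequence. The exon was shorter than each of the 5 other internal exons of the transcript (117 to 404 nt) and had a lower share of G and C (37.5%, against 44.6% to 48.0%). Purines made up 69.4% of it.

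Srrm2, a very large serine- and arginine-rich protein that organizes nuclear speckles and accompanies the spliceosome, had a 63-nt cassette exon in list 2 (chr17:23810413-23810475, plus strand). It is exon 5 of 14 in Srrm2-201 and lies in coding sequence, at bases 530 to 592 of an mRNA of 8564 nt. Leaving it out took the protein from 2607 to 2586 residues without a change of frame. Annotated transcripts that hold the exon number 2, and 0 splice over it, so the skipped product has no counterpart in the annotation. The sequence shown above is 71.4% purine and holds GAAGAAGAAG near its end. Among 385 other listed cassette exons with a coding transcript the median share of purines was 52.2%, and 16 of them (4.16%) reached that of Srrm2. That share was the highest among the members' events. The bases shown before the exon are also rich in purines and hold GAAGAAGAA, so this make-up is not particular to the exon. Other exons of Srrm2 were not compared for purines.

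The second set encodes proteins that bind the transcript and regulate the choice of splice sites, or act on the finished mRNA. Ptbp3, a paralog of the polypyrimidine tract-binding protein Ptbp1, had a 34-nt cassette exon in lists 1 and 2 (chr4:59546149-59546182, minus strand). It is exon 2 of 15 in Ptbp3-202, and begins after only 8 nt of coding sequence. Its length is not divisible by 3, and none of the 12 other internal exons was shorter or had a lower share of G and C (35.3%). The lowest values among those 12 were also 34 nt and 35.3%. Leaving the listed exon out of Ptbp3-202 ended the frame after 20 residues, 1426 nt before the last junction, in place of 551. The annotated transcripts without the exon number 5, as many as those with it. Ptbp3-203 is one of them, keeps the first start codon, ends after 41 residues and is annotated as a target of nonsense-mediated decay. The other 4 start at a later ATG. In Ptbp3-205 that start codon lies in exon 2, after the place of the exon left out, and its 520-residue coding sequence is the end of that of Ptbp3-202. Ptbp3-201 stands in the same relation to Ptbp3-212 (523 and 554 residues), again with 31 residues less at the N terminus.

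Pcbp2, a KH-domain protein that binds C-rich RNA and acts on mRNA stability and translation, had a 56-nt cassette exon in lists 1 and 3 (chr15:102489752-102489807, plus strand). The exon is exon 13 of 15 in Pcbp2-201 and lies in coding sequence. Without it the frame changed and ended after 289 residues in place of 362, with the stop codon 126 nt before the last junction. G and C made up 41.1% of the exon, less than in each of the 12 other internal exons (43.6% to 64%). The annotation holds 11 transcripts with this exon and 0 that splice over it. In 6 other transcripts the exon has the same end but begins 3 nt later, at the base after the CAG that opens the sequence shown above. That shift of acceptor was not listed as an event.

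Celf2, a member of the CELF family that binds GU-rich RNA in the nucleus and the cytoplasm, had an 18-nt acceptor event in list 1 (chr2:6553965-6553982, minus strand). It extends exon 10 of 12 in Celf2-211, and it ends in CAG. Celf2-211 is the only annotated transcript with the 18 bases, whereas 15 have the shorter exon. The proteins of Celf2-211 and Celf2-202 have 490 and 484 residues and differ by the event alone. Like Rbm39, Celf2 thus has annotated proteins 6 residues apart at an acceptor.

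Rbmx, also known as hnRNP G, had the smallest event, a 3-nt acceptor shift in lists 2 and 3 (chrX:57391699-57391701, minus strand). It lies at the start of exon 2 of 9 in Rbmx-202, in the 5′UTR, 23 nt ahead of the start codon, and leaves the 391-residue protein as it is. The 3 bases are a CAG, as seen in the 29 bases around it, with the event in capitals.
Rbmx: gcagtcccctcggCAGacccccatcggtt
A 3-nt step of this kind was common in the lists. Of 94 other acceptor events, 35 (37.2%) had 3 nt, and 24 of the 31 of these with a coding transcript were CAG. The event was annotated in 2 transcripts with the CAG and 2 without it.

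**Figure D2:**
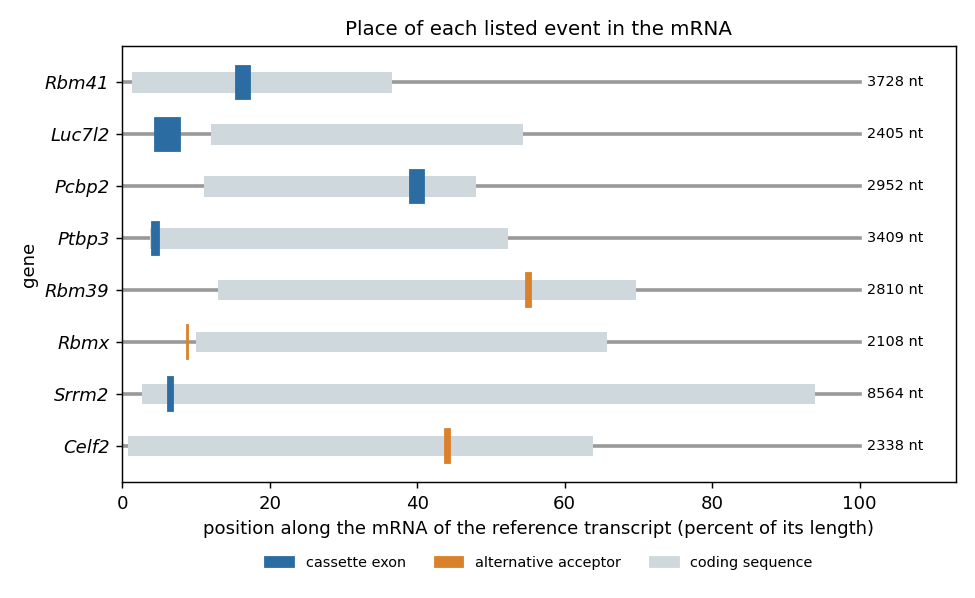
Each line is the mRNA of the reference transcript of a gene, scaled to its own length (given at the right, in nt), with the coding sequence as a grey bar and the listed event in colour (blue, cassette exon; orange, alternative acceptor site). The events of Luc7l2 and Rbmx lie ahead of the coding sequence and those of Ptbp3 and Srrm2 near its start.

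Over the 5 cassette exons, 2 kept the frame and the stop codon when left out (Rbm41 and Srrm2), 2 changed the frame and gave a stop codon more than 50 nt before the last junction (Pcbp2 and Ptbp3), and 1 lay outside the coding sequence of its transcript (Luc7l2). Of 385 other listed cassette exons with a coding transcript, 204 (53.0%) kept frame and stop codon. A further 38 (9.87%) gave such an early stop and 79 (20.5%) lay outside the coding sequence. Each class was read from the reference transcript with its annotated start codon. For Ptbp3 it holds only with the start codon of Ptbp3-202, which Ptbp3-203 keeps. The 4 coding transcripts of Ptbp3 annotated without the exon start at a later ATG. By length, 3 of the 5 exons were divisible by 3, beside 267 of 434 other listed cassette exons (61.5%), and their median length was 63 nt, beside 81 nt. All 3 acceptor events had a length divisible by 3, as did 70 of the 94 others (74.5%). Transcripts with and without the event were both annotated for 6 of the 8 members and for 547 of 635 other events (86.1%), the exceptions among the members being Srrm2 and Pcbp2. With 5 and 3 events, these shares were set side by side and not tested.

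The introns beside the events differed widely between the genes. The intron after the cassette exon was the longest of the reference transcript in Luc7l2 (15446 nt, the median of its introns being 4249 nt), in Ptbp3 (21672 nt, median 3065 nt) and in Rbm41 (22916 nt, median 3271 nt). In Rbmx the intron before the shifted acceptor, of 1150 nt, was also the longest of its 8. The exon of Srrm2 lay between introns of 366 and 263 nt, below the median of 557 nt in its transcript. The introns beside the exon of Pcbp2, of 937 and 826 nt, were near the median of 992 nt. The intron before the acceptors of Rbm39 and Celf2 had 4110 nt (median 1592 nt) and 6688 nt (median 7726 nt).

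**Figure D3:**
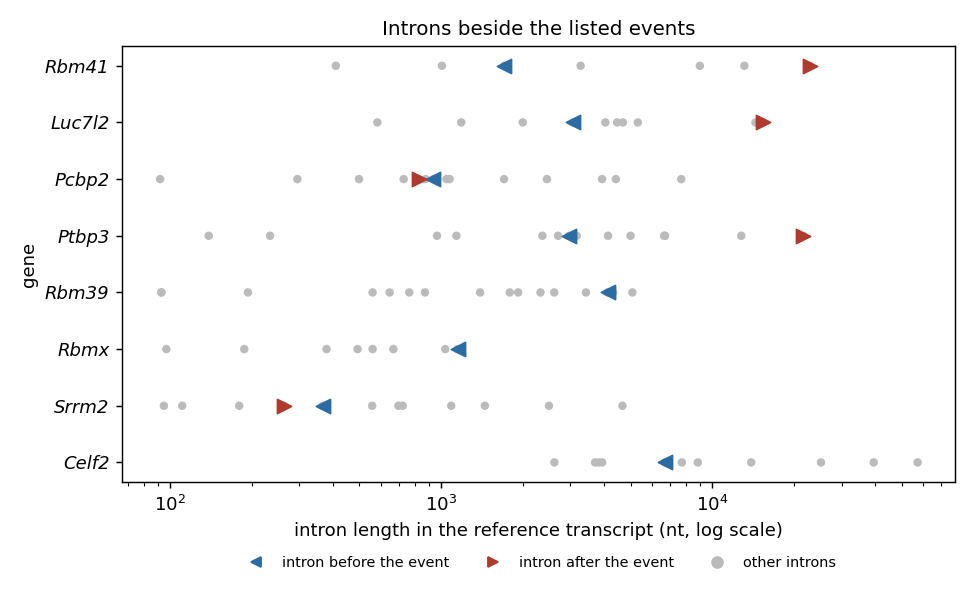
Each point is an intron of the reference transcript of a gene, placed by its length in nt on a log scale. Blue triangles mark the intron before the listed event and red triangles the one after a cassette exon. The red triangles of Rbm41, Luc7l2 and Ptbp3 are the rightmost points of their rows, at 22916, 15446 and 21672 nt.

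Reads from related genes can be a source of error for such factors, which have many paralogs and processed copies. Words of 50 nt across each splice junction, with and without the event, were therefore looked up in all GENCODE transcripts. Of the 21 junction words of the 8 members, 0 were found in a transcript of another gene. Near-identical words and unannotated copies were not searched.

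Other genes of RNA splicing were taken from a list of 217 splicing factors and RNA-binding proteins, of which 212 were matched to a multi-exon protein-coding gene. Events were listed for 13 of them, the 8 members and 5 others. Without the members the share was 5 of 204 (2.45%), close to the 2.81% of all genes. The neuronal RNA-binding protein gene Elavl2 had a 39-nt cassette exon in list 3 and a 3-nt acceptor shift in list 1. Eftud2, the GTPase of the U5 particle, had a 3-nt acceptor shift and Celf4 a 60-nt donor shift, both in list 1.

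By group, events were listed for 1 of 30 SR and SR-related genes (Srrm2), 3 of 46 RBM genes (Rbm39, Rbm41 and Rbmx) and 4 of 29 tissue-regulated splicing regulators (Ptbp3, Celf2, Celf4 and Elavl2). Of 56 genes of the core spliceosome 1 was listed (Eftud2), and 0 of 8 paraspeckle genes. Of the closest paralogs of the members, 13 could be looked up (Luc7l, Luc7l3, Srrm1, Srrm3, Srrm4, Rbmxl1, Rnpc3, Pcbp3, Pcbp4, Hnrnpk, Ptbp1, Ptbp2 and Celf1), and 0 had a listed event of any type. The members counted in these groups were chosen for having an event. The share over all genes was 2.81%, and in groups this small a count of 0 or 1 says little. Differences between the groups were not tested and nothing is read from them.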

How the data were processed

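Strand-specific paired-end RNA-seq was made from 3 control and 3 SFPQ knockdown samples of P19 cells, grouped and numbered by their labels. The labels and the study's methods name different library kits. Per the labels, cutadapt, Bowtie2, STAR and mm10 were used, without versions. SpliceTrap, which estimates exon inclusion from reads, appears in the study's methods. The authors deposited, for each replicate number, the positions and types of differential events. The sources used here do not give the threshold for listing. Nothing says that the samples came from separate cultures.

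Lists 1, 2 and 3 had 275, 269 and 262 lines, of which 5, 4 and 5 were repeats of another line and were dropped. A damaged start position removed 1 cassette event of list 2, outside the members' loci. After 1 was added to the starts, 433 of 439 cassette events matched an exon of GENCODE M21 at both edges, and all types together did so for 622 of 643. An event went to the gene with the best edge match. The assignment was tested on simulated exons.

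Reference transcripts were protein-coding and held the event. Complete coding sequences came first, then the best support level, then the longest coding sequence. Frames were read from the annotated start codon after the event was removed or inserted, and predict a product from the annotation only. Genes named were the members with every event, every gene of the fixed splicing list with an event, the closest paralogs and Sfpq. Some genes and groups of that list are not reported here. The members and lists were chosen with earlier results of these data known. No test was run, because the lists hold no values. Python 3.11.15 and matplotlib 3.10.9 were used.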

Additional observations from a re-analysis of the deposited data

How the results depend on the processing

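The 8 member events were found again when any event inside a locus was allowed, when only protein-coding transcripts were used and when repeated lines were counted. The 6 recurring members stayed 6 when overlaps of at least 50% or any event of the gene sufficed. When one list was left out at a time, the recurring members numbered 2 to 4. Wholly coding cassette exons divisible by 3 numbered 2 in place of 3, without the exon of Luc7l2. Of the splicing list, 7 genes in place of 13 had an event in more than 1 list. The share of all genes with an event used 611 genes in place of 579 when any event inside a locus counted. No paired analysis was possible because no result comes from a test and the lists hold no value for a sample. With no read counts, the depth behind a missing event is unknown, so an event absent from a list cannot be told from one below its threshold.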

Other observations

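The following values were looked at after the data had been seen and were not tested. The intron after the cassette exon was the longest of its reference transcript for 3 of 5 members (Luc7l2, Ptbp3 and Rbm41), beside 32 of 372 other listed cassette exons (8.60%) and 9675 of 162277 internal exons of all reference transcripts (5.96%). The intron before the exon was the longest for 0 of the 5, beside 39 of the 372 (10.5%). The exons of Luc7l2 and Ptbp3 are second exons, that of Rbm41 the fifth.

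The second exons of Luc7l2 and Ptbp3 go with different annotated start codons, in opposite ways. Luc7l2-207, with the exon, has a shorter annotated protein than Luc7l2-201, without it (339 against 392 residues). Ptbp3-205, without the exon, has a shorter one than Ptbp3-202, with it (520 against 551 residues). This holds for these pairs and not for every coding transcript of the genes. In each pair the shorter coding sequence is the end of the longer one.

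In base make-up the members' events spread widely. G and C made up 59.5% of the exon of Luc7l2, more than any of the 8 other internal exons of its transcript. They made up 22.2% of the acceptor event of Rbm39, less than in any of 14 other internal exons. That event is an 18-nt part of an exon, whereas the 14 are whole exons of 50 to 205 nt, so the units differ.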
